A study of Mus musculus with 6 samples.

Results

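The 44 genes described here encode chemokines, cytokines and their receptors. They comprise 24 ligands (15 chemokines and 9 cytokines) and 20 receptors, out of 33460 genes with a deposited expression value. They were chosen by gene family: the Ensembl identifiers were mapped to gene symbols of the NCBIM37 annotation and the listed symbols were taken, and all 44 were found. RNA-seq had been performed on brains of 3 mice at postnatal day 6 that carried both an *NG2-DsRed* and a *Pdgfrb-eGFP* transgene, the latter from the line Tg(Pdgfrb-eGFP)JN169Gsat/Mmucd. Cells positive for both reporters, hereafter mural cells (pericytes and vascular smooth muscle cells), were sorted by fluorescence-activated cell sorting (n = 3). Microvascular fragments, which hold endothelial and mural cells together, were pulled from the opposite side of the same brains with magnetic beads coated with anti-CD31 (n = 3). Both groups therefore came from animals with the same transgenes, and no mice without them were sequenced. DsRed was driven by the promoter of *NG2* (*Cspg4*) and eGFP by that of *Pdgfrb*, and some smooth muscle cells carry little DsRed, so that they may be missing from the sort. Collagenase strength, shaking and the bead incubation also differed between the preparations, and an effect of cell type and an effect of preparation cannot be told apart here.

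Chemokines are small secreted proteins that guide migrating cells through G protein-coupled receptors, and cytokines such as the interleukins, tumor necrosis factor (TNF) and the interferons signal through receptor chains that activate JAK-STAT or NF-kB pathways. In the brain, microglia and the macrophages that lie along vessels are major producers of inflammatory chemokines and cytokines and depend on the receptor CSF1R, which has CSF1 and IL-34 as its ligands. Many other cells, including those of the vessel wall, carry the receptor chains that receive such signals.

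The values were FPKM, which scale the sequenced read pairs of a gene to its exon length and to the depth of the library, so that levels can be compared between genes. Markers of mural cells were in keeping with the label of the sort, as 12 of 12 were higher in mural cells, by 6.47 to 12.5 times, and *Pdgfrb* was at 461, 474 and 401 FPKM against 54.8, 46.8 and 34.6 in fragments 1, 2 and 3, and *Cspg4* at 252, 285 and 235 against 43.3, 43.4 and 32.5. The promoters of *Pdgfrb* and *Cspg4* drive the reporters of the sort, so that these genes are no independent check of the label. Among the other mural markers the ratio ran from 7.38 for *Rgs5* to 12.5 for *Acta2*. Other cell types were present as well. The 12 endothelial markers had a median level in mural cells of 72.8% of that in fragments, and *Pecam1*, which encodes CD31, was at 272, 221 and 208 FPKM in mural cells. Summed markers of microglia lay at 149 to 211 FPKM in mural cells and 2038 to 2471 in fragments. Those of fibroblasts lay at 506 to 689 in mural cells and 62.3 to 71.7 in fragments. Most of this mural sum came from *Col1a1*, *Col1a2* and *Col3a1* (means of 111, 221 and 213 FPKM). The paper lists *Col1a2* and *Col3a1* as enriched in brain mural cells. *Dcn* and *Lum* were also higher, whereas *Pdgfra* and *Slc6a13* were not called, and the cell type behind the sum was not tested. Depth on protein-coding genes was approximately 5.42 to 5.95 M read pairs in the fragments and 1.04 to 2.37 M in mural cells, so that 1 read pair is worth more FPKM in the mural libraries.

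The members were compared between mural cells and fragments, ligands beside receptors. Of the 44 genes, 39 passed the filter on low values (an FPKM of 1 or more in 3 or more of the 6 libraries). A gene was called higher or lower in mural cells at an adjusted p under 0.05 (limma on log2(FPKM + 1), adjusted over all 14801 genes tested) together with a ratio of mean FPKM above 2 or under 0.5. By this rule 3 members were higher, *Il34*, *Cxcr7* and *Il13ra1*, and 17 were lower, whereas 6.43% of all genes tested were called higher and 10.1% lower. Among the 20 ligands tested, 1 was higher, 12 were lower and 7 were not called, but 7 of the 12 lower ones passed the filter through the fragments alone, where they were high. Among the 19 receptors tested, 2 were higher, 5 (26.3%) were lower and 12 (63.2%) were not called, compared with 83.5% of all genes tested that were not called. The median ligand had a log2 ratio of mean FPKM + 1 of -2.32, and the median ligand level in mural cells was 15.5% of that in fragments, by the ratio of mean FPKM. The log2 ratio rests on the filter, with -1.33 without a filter and -3.02 with a filter at FPKM 5. The median receptor had a log2 ratio of -0.11 and a level of 92.6%, next to -0.08 for all genes tested.

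Without a threshold on p or ratio, 22 of the 39 members tested (15 ligands, 7 receptors) had every mural library below every fragment library. This was so for 24.5% of all genes tested, and also for *Il6* and *Ccr2*, which were not tested. In the other direction 6 members (1 ligand, 5 receptors) had every mural library above every fragment library, as did 16.5% of all genes tested. The filter bears on the ligands: 8 of the 20 tested, against 1 of the 19 receptors, reached an FPKM of 1 in fewer than 2 mural libraries and so passed through the fragments. In total 9 members passed in this way, and 8 of the 9 were called lower. Among the members that reached an FPKM of 1 in at least 2 mural libraries, 5 of 12 ligands and 4 of 18 receptors were lower. The number of lower members fell to 9, 10 or 8 when fragments 1, 2 or 3 was left out, with 35 members then tested, and lay between 15 and 18 when a mural library was left out. The median ligand log2 ratio was -1.26 without fragments 1, -1.61 without fragments 3 and between -2.62 and -1.76 without any other single library.

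**Figure D1:**
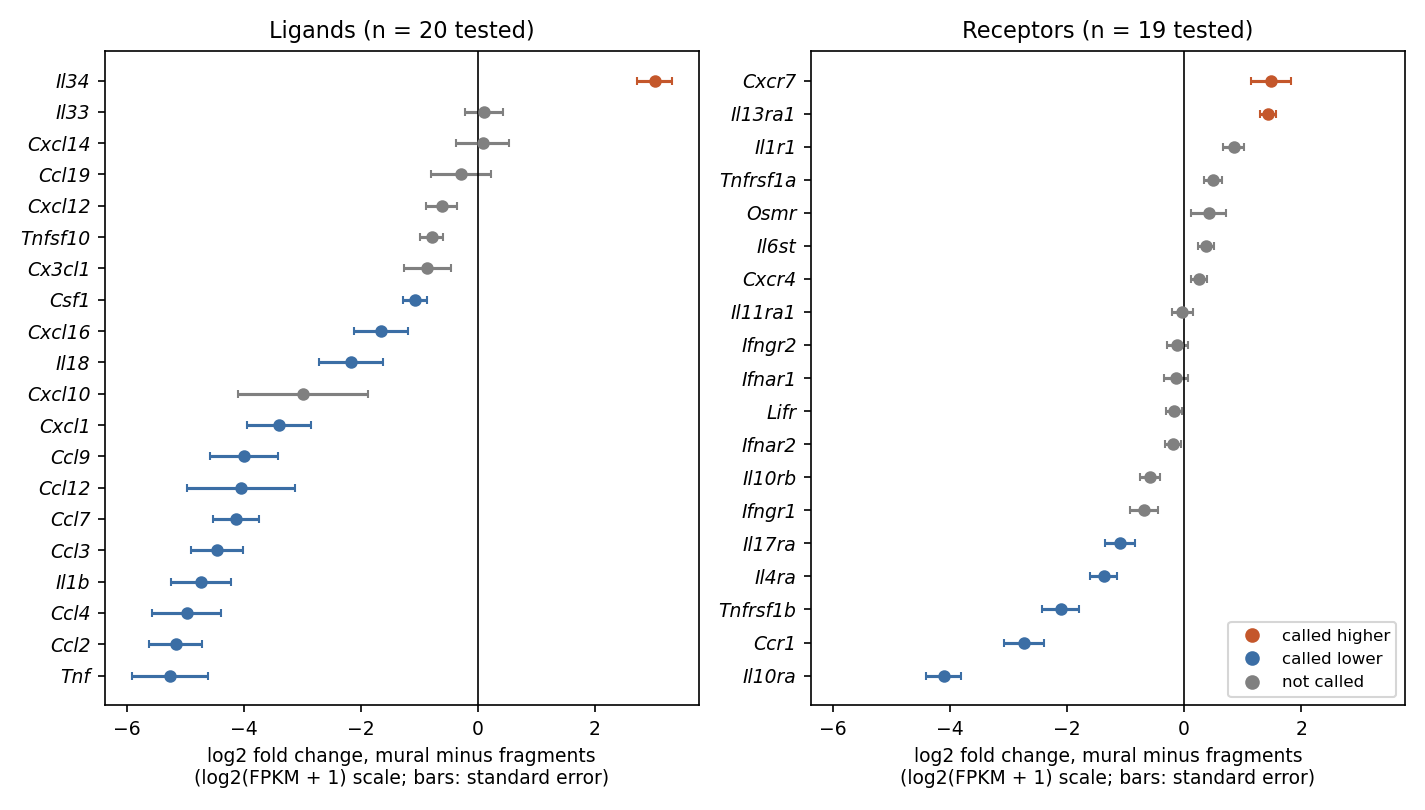
Log2 fold change on the log2(FPKM + 1) scale (x axis, mural cells minus fragments) of the 20 ligands (left) and 19 receptors (right) that were tested; points are limma estimates, bars their standard error, and colors show the call. Most ligands lie left of 0, with *Il34* alone called higher at 3.02, whereas the receptors center near 0.

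The CC chemokines made up most of the lower chemokine ligands. *Ccl2* (ENSMUSG00000035385), the monocyte attractant MCP-1, lies on chromosome 11 of NCBIM37 from 81849073 to 81850955, plus strand. Its level was 58.5, 36.5 and 58.6 FPKM in fragments 1, 2 and 3, and 1.85, 0 and 0 in mural cells 1, 2 and 3. All mural libraries were thus far below all fragment libraries, and the mural value rested on approximately 3 read pairs against 625. Pooled over libraries and corrected for depth, this was 1.97% of the fragment level (exact 95% interval 0.405 to 5.78%, counting error only), and the gene was called lower (limma, adjusted p = 0.000345).

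*Ccl7*, a neighbor of *Ccl2* that also attracts monocytes, was at 20.2, 14.4 and 31.3 FPKM in fragments and 0.945, 0 and 0 in mural cells, where 1 read pair was found against 181. *Ccl12*, in the same cluster, was at 39.7, 42.5 and 30.7 in fragments and 0, 0 and 11.3 in mural cells. Its mural reads came from library 3 alone, the pooled level was 7.21% of that in fragments (exact 95% interval 1.47 to 21.4%), and the call (limma, adjusted p = 0.0187) was lost without mural 1 (adjusted p = 0.0504) and without any fragment library (adjusted p = 0.0602 to 0.0639). *Ccl11*, which attracts eosinophils and lies between them, was not tested and did not exceed 1.28 FPKM in any library.

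A second group on chromosome 11 holds *Ccl3* and *Ccl4*, the macrophage inflammatory proteins 1-alpha and 1-beta, which attract monocytes and other leukocytes. *Ccl3* had 88.3, 79.0 and 76.7 FPKM in fragments and 1.00, 2.37 and 6.74 in mural cells, a log2 fold change of -4.46 (SE 0.45, limma, adjusted p = 0.000576). *Ccl4* had 75.0, 29.9 and 51.6 FPKM in fragments and 0, 2.91 and 0 in mural cells, with 1 read pair against 330. *Ccl9*, another ligand of CCR1, had 37.3, 52.9 and 77.5 FPKM in fragments and 2.59, 6.68 and 0.452 in mural cells (log2 fold change -3.99, SE 0.58, limma, adjusted p = 0.00289). For all 3 genes the highest mural library stayed far below the lowest fragment library. *Ccl5*, or RANTES, was near 0: it had 0, 0.499 and 2.197 FPKM in fragments and 0, 4.03 and 0 in mural cells, where 1 read pair made up the value, and it was not tested. Reads of such closely related chemokines may be shared between copies, so that single values in these clusters are less certain. *Ccl2* also overlaps *Gm17268* on the opposite strand.

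Among the CXC chemokines the picture was mixed. *Cxcl1*, a ligand of CXCR2 that attracts neutrophils, was lower in mural cells. It had 36.0, 9.98 and 13.1 FPKM in fragments and 0.753, 1.78 and 0 in mural cells, where 2 read pairs were found against 203 (pooled level 4.05%, exact 95% interval 0.487 to 14.8%, limma, adjusted p = 0.0047). *Cxcl16*, a membrane-bound chemokine recognized by CXCR6, had 21.9, 10.7 and 14.5 FPKM in fragments and 5.30, 1.61 and 7.12 in mural cells. Its groups did not overlap either, but the call (log2 fold change -1.65, SE 0.46, limma, adjusted p = 0.0405) was lost without any fragment library (adjusted p = 0.0635 to 0.148) and without mural 1 (adjusted p = 0.0586). *Cxcl10*, the interferon-induced ligand of CXCR3, varied most among the fragments, at 53.5, 4.18 and 16.3 FPKM, and was at 0, 0 and 8.67 in mural cells. The groups overlapped, since mural 3 lay above fragments 2. *Cxcl10* and *Cxcl16* overlap the protein-coding genes *Art3* and *Zmynd15* on the opposite strand, and reads of the partners may not be told apart. The difference did not pass the threshold (log2 fold change -2.99, SE 1.11, limma, adjusted p = 0.0981), but did so without mural 3 (-4.09, adjusted p = 0.0233).

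*Cxcl12*, a chemokine long known from vessels that binds CXCR4 and CXCR7, had the highest mean of the ligands in both groups. It was at 104.3, 108.9 and 103.7 FPKM in fragments and 95.7, 76.3 and 43.8 in mural cells. Every mural library lay below every fragment library, but the mural values spread more than 2 times and the difference did not pass (log2 fold change -0.62, SE 0.26, limma, adjusted p = 0.141). *Cx3cl1*, or fractalkine, whose receptor *Cx3cr1* marks microglia, was at 10.8, 10.2 and 8.87 FPKM in fragments and 8.60, 6.03 and 2.196 in mural cells, again without overlap and without a call (log2 fold change -0.86, SE 0.40, adjusted p = 0.176). *Cxcl14* had 2.56, 4.51 and 2.78 FPKM in fragments and 1.34, 4.14 and 6.26 in mural cells, with overlapping groups and no call (limma, adjusted p = 0.921). *Ccl19*, a ligand of CCR7, had 2.16, 1.34 and 1.29 FPKM in fragments and 1.28, 3.00 and 0 in mural cells, with 2 read pairs in mural cells against 12, and overlaps *4930578G10Rik* on the opposite strand. Mural 3, in which *Cxcl14* and *Cxcl10* were highest, also had the highest summed astrocyte markers (809 FPKM against 225 and 265 in the other mural libraries), and their part in these values was not tested.

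**Figure D2:**
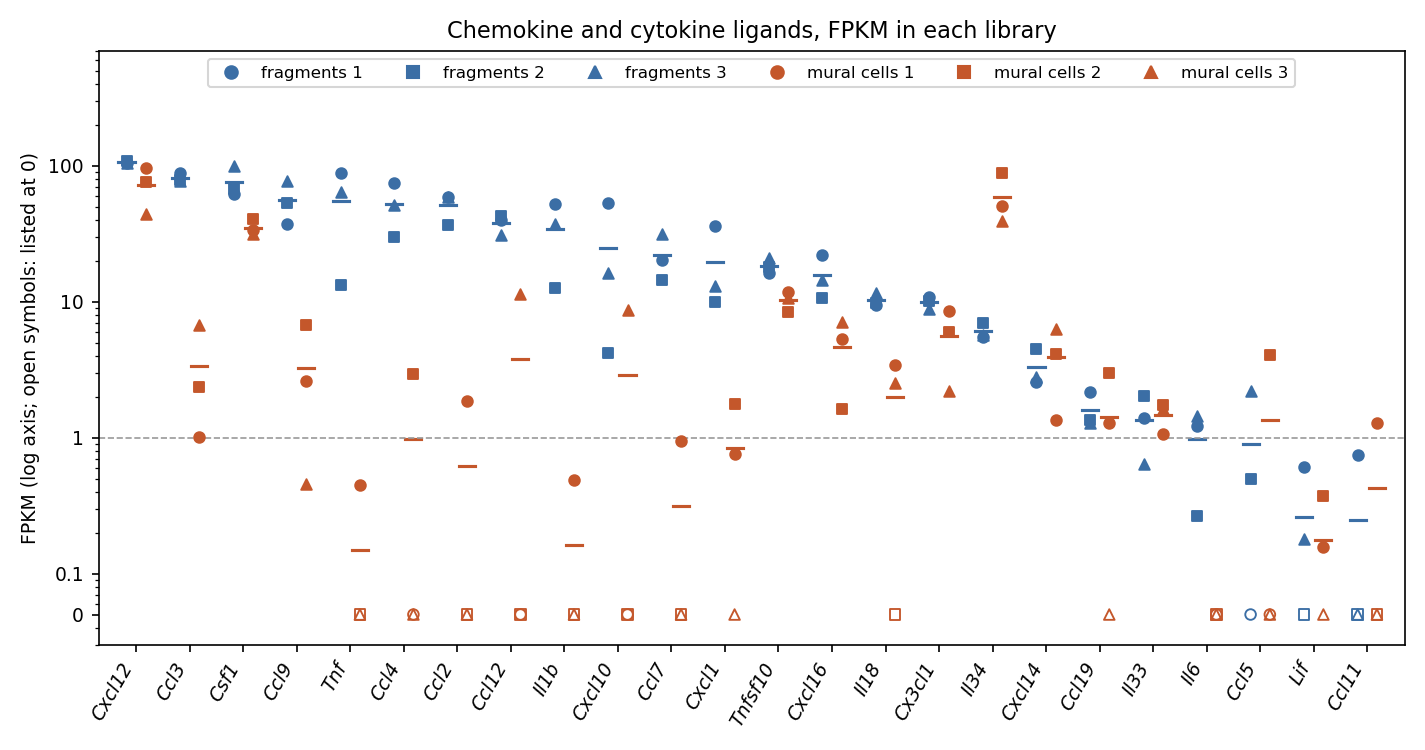
FPKM (log y axis) of the 24 ligands in each of the 6 libraries, ordered by mean level in fragments; horizontal bars are group means and open symbols stand for genes listed at 0. *Cxcl12* and *Csf1* are abundant in both groups, *Il34* is the one ligand above the fragments in all mural libraries, and *Tnf*, *Il1b*, *Ccl2*, *Ccl4* and *Ccl7* sit near 0 in mural cells.

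Of the inflammatory cytokines, *Tnf*, *Il1b* and *Il18* were lower in mural cells. *Tnf* was at 88.3, 13.3 and 63.6 FPKM in fragments and 0.448, 0 and 0 in mural cells, that is approximately 1 read pair against 1089, or a pooled level of 0.375% (exact 95% interval 0.00948 to 2.09%, limma, adjusted p = 0.00142). *Il1b*, encoding interleukin-1 beta, was at 52.6, 12.5 and 37.5 FPKM in fragments and 0.489, 0 and 0 in mural cells, with a pooled level of 0.754% (exact 95% interval 0.0191 to 4.22%, limma, adjusted p = 0.000816). For both genes the groups were far apart, and fragments 2 was several times below the other fragment libraries. *Il1b* overlaps the noncoding *Gm14047* on the opposite strand. *Il18*, an interleukin of the same family, was at 9.46, 9.78 and 11.5 FPKM in fragments and 3.40, 0 and 2.53 in mural cells (log2 fold change -2.17, SE 0.54, limma, adjusted p = 0.0274). This call was lost without fragments 1, 2 or 3 (adjusted p = 0.0837 to 0.105) and, among other settings, with a pseudocount of 0.1 (adjusted p = 0.117).

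*Il6*, the ligand of IL6RA, was low in fragments (1.23, 0.265 and 1.45 FPKM) and listed at 0 in all 3 mural libraries, where 0 read pairs against 12 still allow a level of up to 148% of that in fragments (exact 95% interval). *Lif*, a relative of *Il6*, stayed below 1 FPKM in all 6 libraries, and neither gene was tested. *Il33*, an alarmin of the interleukin-1 family, was low with overlapping groups, at 1.40, 2.02 and 0.643 FPKM in fragments and 1.07, 1.72 and 1.63 in mural cells (limma, adjusted p = 0.854). *Tnfsf10*, which encodes the death ligand TRAIL, had 16.3, 18.1 and 20.9 FPKM in fragments and 11.8, 8.41 and 10.6 in mural cells. Every mural library lay below every fragment library and the difference passed the p threshold (log2 fold change -0.79, SE 0.19, limma, adjusted p = 0.0252), but the ratio of means, 0.557, did not reach the limit of 0.5.

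The ligands of CSF1R were called in opposite directions, *Il34* higher and *Csf1* lower. *Il34* (ENSMUSG00000031750, chromosome 8 from 113265729 to 113329824, minus strand, NCBIM37) was at 5.48, 6.97 and 5.67 FPKM in fragments and 50.3, 87.7 and 39.1 in mural cells. Its means were 6.04 ± 0.813 (SD, n = 3) and 59.1 ± 25.4 (SD, n = 3), which gave a ratio of 9.78 (log2 fold change 3.02, SE 0.29, limma, adjusted p = 0.000516). All mural libraries lay far above the fragments, and the ratio falls within the 6.47 to 12.5 of the mural markers and also among those of the fibroblast markers called higher (6.17 to 12.9). *Il34* kept its call in 16 of 16 alternative settings, with a log2 fold change of 2.69 to 3.27. It overlaps the noncoding genes *Gm15894* and *Gm15895* on the opposite strand, and whether the counting used strand is not given in the sources used here. *Csf1* was at 61.9, 67.5 and 99.9 FPKM in fragments and 33.4, 40.6 and 31.2 in mural cells (log2 fold change -1.08, SE 0.20, limma, adjusted p = 0.00889). The groups did not overlap, and the ratio was 0.459. Without fragments 3 it no longer passed the limit on the ratio, at a log2 fold change of -0.87. *Il34* was thus below *Csf1* in every fragment library and above it in every mural library. The receptor *Csf1r* itself, also one of the microglia markers, was at 860, 649 and 747 FPKM in fragments and 89.9, 44.8 and 50.5 in mural cells.

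The promoters of members were searched for the kB motif, to which NF-kB binds downstream of TNF and interleukin-1 receptors. It was spelled as GGGA, any 4 bases and CC, and read on both strands in the 250 bases before each start in RefSeq (GRCm38.p6). A promoter was found for 34 of the 44 members, in all 38 promoters, of which 12 (31.6%) held a match, compared with 17.6% of all 32851 promoters of the same length. Among promoters of members called lower it was 3 of 11, among those called higher 1 of 2 and among the others 8 of 25. Shown are lower ligands with several matches (*Cxcl1*, *Csf1*), the ligand with the widest spread among fragments (*Cxcl10*) and the higher receptor with a match (*Il13ra1*), each from 5′ to 3′ on the strand of the gene, ending at the base before the start, with matches in capitals. Matches start 90, 71 and 70 bases upstream in *Cxcl1*, 159 and 103 in *Cxcl10*, 231, 155 and 154 in *Csf1* and 37 in *Il13ra1*, and those at neighboring positions overlap.
Cxcl1, chr5:90890995-90891244, plus strand: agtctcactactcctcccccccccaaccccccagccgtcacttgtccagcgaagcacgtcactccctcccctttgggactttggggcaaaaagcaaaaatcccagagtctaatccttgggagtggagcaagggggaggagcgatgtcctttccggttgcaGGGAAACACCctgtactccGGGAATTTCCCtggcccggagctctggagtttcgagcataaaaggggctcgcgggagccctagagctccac
Cxcl10, chr5:92348890-92349139, minus strand: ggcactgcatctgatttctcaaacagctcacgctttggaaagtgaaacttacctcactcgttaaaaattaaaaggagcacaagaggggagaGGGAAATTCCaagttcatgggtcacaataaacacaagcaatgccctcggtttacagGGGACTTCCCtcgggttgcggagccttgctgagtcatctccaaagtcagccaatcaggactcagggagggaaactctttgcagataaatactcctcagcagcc
Csf1, chr3:107760470-107760719, minus strand: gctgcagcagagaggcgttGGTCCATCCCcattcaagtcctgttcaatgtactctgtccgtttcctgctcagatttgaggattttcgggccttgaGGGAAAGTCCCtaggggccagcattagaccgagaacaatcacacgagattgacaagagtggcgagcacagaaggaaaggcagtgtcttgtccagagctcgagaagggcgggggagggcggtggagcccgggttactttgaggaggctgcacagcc
Il13ra1, chrX:36111858-36112107, plus strand: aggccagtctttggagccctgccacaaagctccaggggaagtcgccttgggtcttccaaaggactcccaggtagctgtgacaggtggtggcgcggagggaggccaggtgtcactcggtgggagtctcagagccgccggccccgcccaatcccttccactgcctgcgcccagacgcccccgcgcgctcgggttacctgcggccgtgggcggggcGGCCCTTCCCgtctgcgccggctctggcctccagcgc

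The interferon-stimulated response element, spelled as GAAA, any 2 bases and GAAA, was found in 4 of the 38 promoters (10.5%, against 2.98% of all promoters). The STAT motif TTCNNNGAA was also in 4 (10.5%, against 7.02%), and so was the AP-1 motif TGANTCA (10.5%, against 6.75%). These too were read on both strands, and the motifs were counted separately and may overlap. Such a match describes the letters only, and binding was not measured.

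Of the 4 members of the interleukin-6 receptor family none was called, and 1 was higher at an unadjusted p under 0.05 (limma). The chain shared by the interleukin-6 family, gp130 (*Il6st*), was at 62.4, 70.8 and 70.7 FPKM in fragments and 75.5, 99.6 and 91.2 in mural cells. All mural libraries lay above all fragment libraries, but the difference did not pass (log2 fold change 0.37, SE 0.14, limma, adjusted p = 0.0944). Of its partner chains, *Lifr* had 33.0, 38.0 and 32.0 FPKM in fragments and 27.0, 31.4 and 33.0 in mural cells, and *Osmr*, for oncostatin M, had 31.1, 38.0 and 31.2 in fragments and 40.6, 73.4 and 30.3 in mural cells. Both overlapped between groups, with adjusted p of 0.442 and 0.367 (limma). *Il11ra1*, the interleukin-11 receptor, had 53.9, 69.0 and 44.2 FPKM in fragments and 55.0, 55.9 and 50.2 in mural cells. Its locus overlaps several other genes and has near-identical copies, so that this level is uncertain. By contrast *Il6ra*, the receptor chain for interleukin-6 itself, was lower, at 35.3, 42.1 and 48.0 FPKM in fragments and 4.30, 3.85 and 2.42 in mural cells (log2 fold change -3.26, SE 0.23, limma, adjusted p = 0.000166).

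None of the 4 interferon receptors was called, and 1 was lower at an unadjusted p under 0.05 (limma). *Ifnar1* and *Ifnar2*, the chains that bind type I interferons, were among the most abundant receptors. *Ifnar1* was at 102, 115 and 109 FPKM in fragments and 86.3, 136 and 80.6 in mural cells. *Ifnar2* was at 87.9, 105 and 80.3 FPKM in fragments and 84.8, 71.5 and 82.0 in mural cells. In both cases the groups overlapped (limma, adjusted p = 0.66 and 0.376). For interferon gamma, *Ifngr2* was at 24.6, 30.5 and 29.1 FPKM in fragments and 23.0, 31.6 and 23.3 in mural cells, also overlapping. *Ifngr1* was at 55.8, 61.8 and 77.2 FPKM in fragments and 46.9, 48.1 and 27.2 in mural cells, without overlap and short of the threshold (log2 fold change -0.69, SE 0.24, limma, adjusted p = 0.0821).

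Of the TNF receptors, *Tnfrsf1b* was lower and *Tnfrsf1a* was not called. *Tnfrsf1a*, the widely expressed TNFR1, had 55.9, 71.8 and 72.6 FPKM in fragments and 83.1, 107 and 92.3 in mural cells. All mural libraries were above the fragments, although the difference fell just short (log2 fold change 0.49, SE 0.15, limma, adjusted p = 0.0574). *Tnfrsf1b*, or TNFR2, had 19.9, 31.6 and 33.9 FPKM in fragments and 4.05, 8.91 and 4.91 in mural cells, and was lower (log2 fold change -2.11, SE 0.32, limma, adjusted p = 0.00339). Its mural level was 20.9% of that in fragments. The mural libraries thus held *Tnfrsf1a* at a mean of 94.1 ± 11.9 FPKM (SD, n = 3) while *Tnf* itself was near 0. These libraries also held endothelial RNA, and the cell type behind this level was not tested.

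Among chemokine receptors, *Cxcr7* was higher in mural cells and *Cxcr4* was not called. *Cxcr7* (ENSMUSG00000044337, chromosome 1 from 92100555 to 92113326, plus strand), also named *Ackr3*, is an atypical receptor that binds and removes CXCL12. It had 10.8, 13.2 and 8.96 FPKM in fragments and 24.8, 56.6 and 23.5 in mural cells, with a ratio of 3.18 (log2 fold change 1.48, SE 0.34, limma, adjusted p = 0.0201). All mural libraries lay above the fragments, with mural 2 more than 2 times the others, and the call was lost without fragments 1 (adjusted p = 0.0678) or fragments 3 (adjusted p = 0.0819). *Cxcr4*, the signaling receptor of CXCL12, had 37.4, 49.7 and 44.3 FPKM in fragments and 47.5, 54.3 and 54.8 in mural cells (log2 fold change 0.25, SE 0.14, adjusted p = 0.253). Ligand and both receptors of this axis were therefore detected in every mural library, although the cell type they came from was not tested. *Ccr1*, the receptor of CCL3 and CCL9, was at 5.74, 7.64 and 11.4 FPKM in fragments and 0.643, 0 and 0.482 in mural cells (log2 fold change -2.74, SE 0.35, limma, adjusted p = 0.00156). *Ccr2*, the receptor of CCL2, CCL7 and CCL12, was low, at 0.947, 0.805 and 1.22 FPKM in fragments and 0.332, 0 and 0 in mural cells, and was not tested.

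Of the other 6 interleukin receptors, 1 was higher (*Il13ra1*), 3 were lower (*Il4ra*, *Il10ra* and *Il17ra*) and 2 were not called. *Il13ra1* (ENSMUSG00000017057, X chromosome from 33652105 to 33711254, plus strand), a chain for interleukin-13 and interleukin-4, was at 15.7, 17.0 and 18.5 FPKM in fragments and 44.9, 52.0 and 47.0 in mural cells. The values were tight within each group and far apart between them, with a ratio of 2.81 (log2 fold change 1.44, SE 0.13, limma, adjusted p = 0.00044), and the call was kept in 16 of 16 alternative settings. Its partner *Il4ra* was lower, with 39.1, 29.2 and 53.3 FPKM in fragments and 15.7, 12.7 and 15.5 in mural cells (log2 fold change -1.37, SE 0.23, limma, adjusted p = 0.00528). *Il1r1*, the signaling receptor of interleukin-1, was at 12.3, 16.0 and 12.6 FPKM in fragments and 21.1, 28.1 and 26.6 in mural cells. Every mural library was above the fragments and the difference passed the p threshold (log2 fold change 0.84, SE 0.18, limma, adjusted p = 0.016), but the ratio of 1.86 did not reach 2. It did so when fragments 2 or mural 1 was left out, at log2 fold changes of 0.96 in both cases.

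*Il10ra*, the ligand-binding chain for interleukin-10, was at 34.1, 38.3 and 38.3 FPKM in fragments and 2.13, 0.517 and 1.20 in mural cells (log2 fold change -4.11, SE 0.29, limma, adjusted p = 0.000166). It had the lowest mural level relative to fragments of the receptors tested, 3.48%. *Il10rb*, the chain shared with other cytokines, was at 53.2, 68.2 and 55.6 FPKM in fragments and 44.02, 31.8 and 41.9 in mural cells. Its groups did not overlap and it passed the p threshold (log2 fold change -0.58, SE 0.17, limma, adjusted p = 0.0455) but not the limit on the ratio, and it overlaps *Ifnar2* on the same strand. *Il17ra*, for interleukin-17, was at 11.4, 10.2 and 16.4 FPKM in fragments and 5.98, 6.06 and 4.04 in mural cells (log2 fold change -1.10, SE 0.26, limma, adjusted p = 0.0224). That call was lost without fragments 1 (adjusted p = 0.072) or fragments 3 (adjusted p = 0.105), and with the replicate number as a block (adjusted p = 0.0597).

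**Figure D3:**
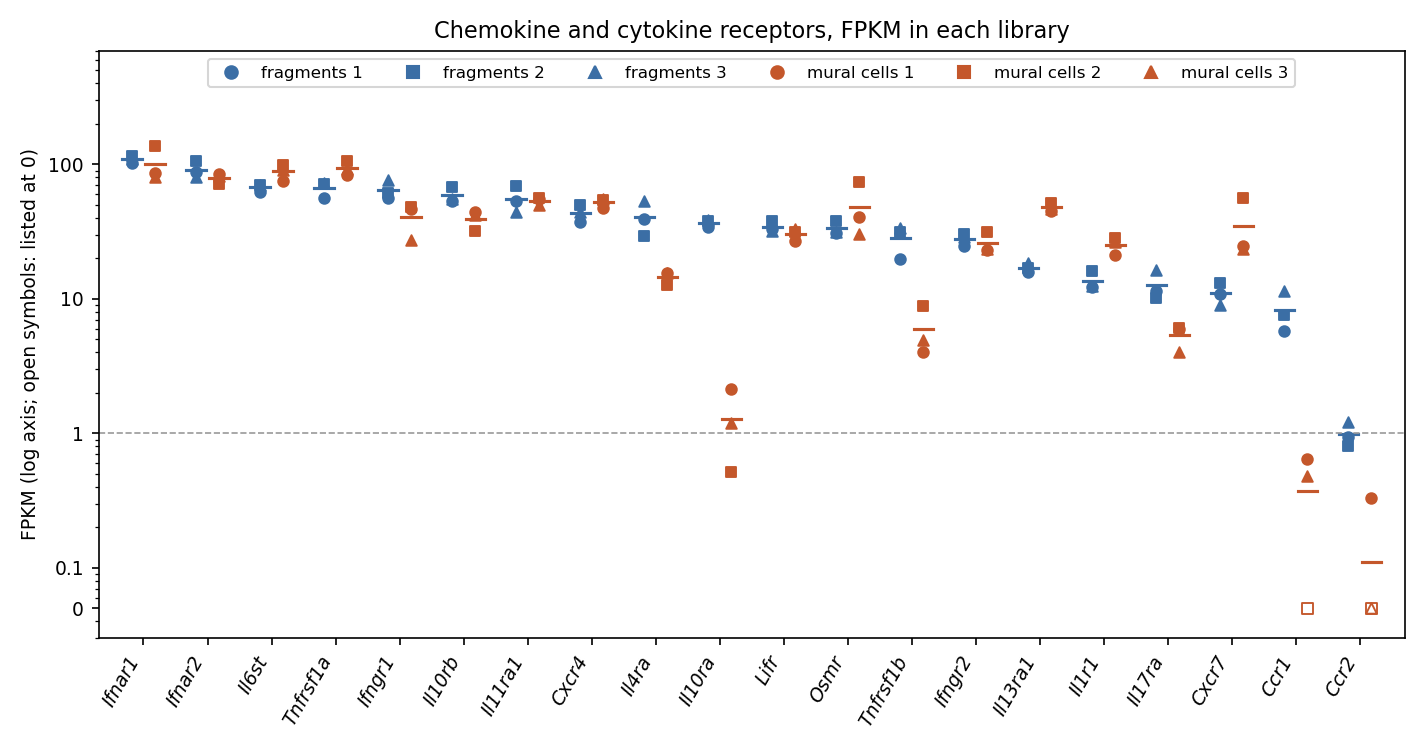
FPKM (log y axis) of the 20 receptors in each of the 6 libraries, ordered by mean level in fragments; horizontal bars are group means and open symbols stand for genes listed at 0. Of the 19 tested, 12 were not called, some with and some without overlap between the groups. *Cxcr7* and *Il13ra1* lie higher in mural cells, and *Il10ra*, *Ccr1*, *Tnfrsf1b*, *Il4ra* and *Il17ra* lie lower.

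Set beside markers of other cells, the lower members fell into ranges. The 12 microglia markers were all lower, at 4.77 to 12.1% of their level in fragments (median 8.62%). Of the 17 lower members, 9 lay below that range by the ratio of mean FPKM, 2 (*Ccl9* and *Ccl12*) within it and 6 above it (*Il18*, *Tnfrsf1b*, *Cxcl16*, *Il4ra*, *Il17ra* and *Csf1*). Few read pairs stand behind the lowest values: of the 9, the exact 95% interval of the pooled level lay wholly below the range for *Tnf* and *Il1b* and reached into it for the other 7. These intervals cover counting error only and leave out the spread among libraries. The range of the markers is a ratio of mean FPKM without an error of its own, so that the comparison is rough. The 7 perivascular macrophage markers were all lower too (median 8.41%), and *Cd209f* was listed at 0 in mural cells. Like *Cd163*, it reached an FPKM of 1 in fewer than 2 mural libraries and passed the filter through the fragments. Sums of the 7 markers were 282 to 437 FPKM in fragments and 50.02 to 76.7 in mural cells. In these bulk samples, fewer microglia or macrophages and less RNA per cell cannot be told apart. Of lymphocyte and granulocyte genes, *Cd3e*, *Cd3g* and *Nkg7* were listed at 0 in every library, and the 3 tested, *S100a8*, *S100a9* and *Ngp*, were lower in mural cells, with list sums of 37.1 to 122 FPKM in fragments and 0 to 6.57 in mural cells. Of the 3, *S100a8* and *Ngp* reached an FPKM of 1 in fewer than 2 mural libraries. They passed the filter through the fragments, which favored a lower call. Of fibroblast markers, 5 of 7 tested were higher in mural cells, as were the 3 higher members, and the part of fibroblasts in those was not tested. Limma called none of 9 astrocyte, 7 neuron and 4 erythroid markers tested (at an unadjusted p under 0.05, 1, 3 and 0 were lower), 1 of 7 of the oligodendrocyte lineage (*Mbp*, lower) and 2 of 12 endothelial markers (both lower). A further 4 endothelial markers passed the p threshold but not the limit on the ratio, and 8 were lower at an unadjusted p under 0.05.

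Immediate early and stress genes, which cells induce within minutes of a stimulus, were mostly lower in mural cells as well. Of 16, 14 were lower in mural cells and 2 were not called (median level 14.3%, range 2.34 to 42.0%), with sums of 2767 to 3346 FPKM in fragments and 304 to 383 in mural cells. *Fos* was at 840, 779 and 1013 FPKM in fragments and 19.3, 25.2 and 31.8 in mural cells. The part of these genes, of microglia and of macrophages in the differences of the members was not tested.

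**Figure D4:**
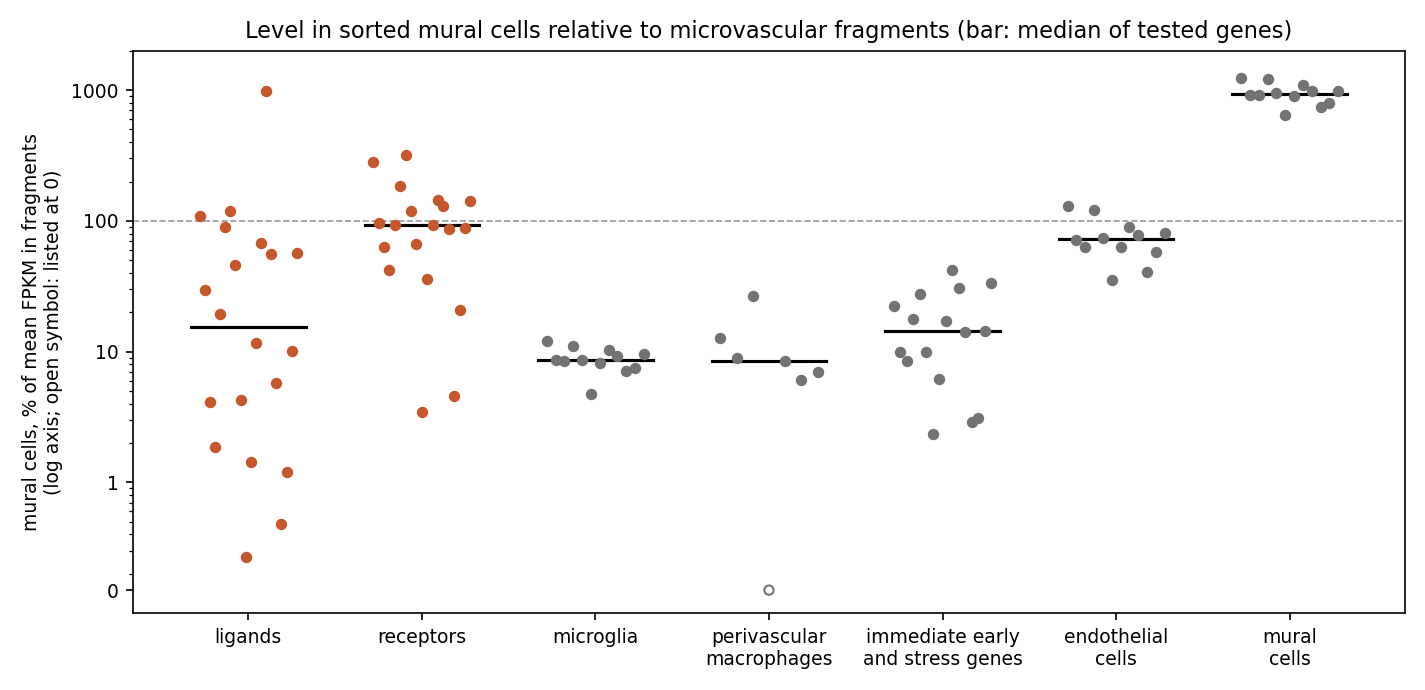
Mean level in mural cells as a percentage of the mean level in fragments (log y axis) for tested ligands and receptors and for marker lists of other cells and of immediate early and stress genes; each point is a gene, horizontal bars are medians, the dashed line marks 100% and the open symbol a gene listed at 0. The ligands spread from 0.271% to 978% with a median of 15.5%, and the receptors center at 92.6%.

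Some ligands also varied strongly among the fragment libraries. Among genes with a mean of at least 5 FPKM in fragments, the highest library exceeded the lowest by 12.8 times for *Cxcl10*, 6.65 for *Tnf*, 4.20 for *Il1b*, 3.61 for *Cxcl1* and 2.50 for *Ccl4*. In each of these 5 genes, fragments 1 was highest and fragments 2 lowest. The next by spread, *Ccl7* (2.17) and *Ccl9* (2.08), were highest in fragments 3, and *Ccl9* was lowest in fragments 1. The median over the 12 lower ligands was 2.06, compared with 1.38 for the microglia markers, 1.29 for the receptors not called and 1.26 for all protein-coding genes at that level. Immediate early and stress genes spread less (median 1.38), but 13 of 15 were also lowest in fragments 2, as were 7 of the 12 lower ligands and 33.3% of protein-coding genes. This was a description over 3 libraries and was not tested.

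Other genes of the same pathways were taken from lists. Of 36 further ligands, 33 were matched and 17 tested, and 10 were lower and none higher (limma, also none at an unadjusted p under 0.05). Over all genes tested, 10.1% were lower and 6.43% higher. Several of the lower ligands, *Il1a* among them, reached an FPKM of 1 in fewer than 2 mural libraries. They passed the filter through the fragments, where they were high, so that the filter favored a lower call. The largest changes were in *Il1a* (42.0, 19.7 and 41.3 FPKM in fragments, 0, 1.51 and 0 in mural cells), *Cxcl2*, *Pf4* and *Ccl6*. *Pf4* is also counted among the perivascular macrophage markers. Of 23 partner receptors, 19 were tested, with 7 lower and 1 higher, and some of the lower ones also passed through the fragments alone. Among the lower ones were the microglial *Cx3cr1* (log2 fold change -3.66) and *Csf1r* (-3.64), and *Il6ra* (-3.26). The higher one, *Il17rc*, a partner of *Il17ra*, was at 8.57, 5.04 and 4.24 FPKM in fragments and 27.1, 14.3 and 15.5 in mural cells (log2 fold change 1.52, SE 0.33, limma, adjusted p = 0.016), and is named after its values were seen.

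Downstream components were tested as well, and 10.1% of all genes tested were lower. Of 19 JAK-STAT genes tested, 4 (21.1%) were lower and none higher (limma, 7 lower and 1 higher at an unadjusted p under 0.05). These were the feedback inhibitors *Socs3* (log2 fold change -3.28), *Cish* (-2.28) and *Socs1* (-1.84) and the phosphatase *Ptpn6* (-1.97), while *Jak1* was at 61.5, 55.7 and 61.7 FPKM in fragments and 63.7, 59.4 and 52.9 in mural cells. *Cish* and *Socs1* reached an FPKM of 1 in fewer than 2 mural libraries. They passed the filter through the fragments, where they were high, so that the filter favored a lower call. *Socs3* is also counted among the immediate early and stress genes. Of 27 genes of NF-kB, interleukin-1 and TNF signaling, 6 (22.2%) were lower and none higher (limma, 15 lower and 1 higher at an unadjusted p under 0.05). Among the 6 were *Nfkbiz* (-3.67), the inhibitors *Tnfaip3* (-3.53) and *Nfkbia* (-1.77) and the subunit *Rel* (-2.38). Of 21 interferon response genes tested, 7 were lower and 1 higher. Some of the lower ones, *Mx1* among them, reached an FPKM of 1 in no mural library. They passed the filter through the fragments, so that the filter favored a lower call. The transcription factors *Irf8* (-2.73) and *Irf1* (-1.60) and the proteasome subunit *Psmb8* (-1.53) were lower, and *Mx1* was listed at 0 in all mural libraries and at 1.41, 2.92 and 2.38 FPKM in fragments. The higher one, *Oasl2*, was at 10.3, 13.6 and 8.89 FPKM in fragments and 34.5, 34.3 and 28.8 in mural cells (log2 fold change 1.51, SE 0.19, limma, adjusted p = 0.00158), and is likewise named after its values were seen.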

How the data were processed

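The authors deposited 1 FPKM value per gene and library. Per the submitters' processing notes and the methods, TopHat2 2.0.4 (alignment to NCBIM37), Picard 1.92 (removal of duplicates) and Cufflinks 2.2.1 were used. How libraries were scaled to each other is not given in the sources used here. A single line was kept for 9 identifiers with repeated lines, whose values were the same, and 33116 of 33460 identifiers had a symbol in the annotation.

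Log2(FPKM + 1) was fitted with limma 3.58.1 (R 4.3.3, intensity trend, no block, all 6 libraries), and p was adjusted by Benjamini-Hochberg across 14801 genes (FPKM of 1 or more in 3 or more libraries). Fold changes on this scale understate those of low genes. The fit was tested on simulated data. Adjusted p weighs the difference between groups against the spread between these libraries, 3 per group. Within a group each library came from a separate brain. Both groups came from the same 3 brains, which the main fit did not use.

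In genes with a single transcript, low values were whole multiples of the value of 1 read pair (97.9 to 98.5% within 0.1), which gave the read pairs, approximate where a gene has several transcripts. Intervals are exact (Clopper-Pearson) and cover counting error only. Promoters came from RefSeq. Tables were made in Python 3.11.15 with pandas 2.3.3, NumPy 2.4.6 and SciPy 1.17.1.

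The members and all lists were chosen with earlier results of these data known. Values in every library are given for members with a mean of at least 1 FPKM in either group, and from each other list at most 4 called genes by absolute log2 fold change, with receptors of members and the genes behind the sort and the beads. The values of 1 listed gene are not reported here. Alternatives were another pseudocount (0.1), median-ratio scaling, quantile normalization, the replicate block, no trend, no filter, a filter at FPKM 5, protein-coding genes only, leaving out genes at 0 in a whole group, adjusted p under 0.01 and leaving out each library.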

Additional observations from a re-analysis of the deposited data

How the results depend on the processing

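The number of higher members, 3, lay between 2 and 4 in every alternative, and that of lower members, 17, between 13 and 17 apart from leaving out libraries, where it was 8 to 18. The 4 members lost to the filter without a fragment library account for part of this. The ligand median log2 ratio, -2.32, was -1.33 without a filter and -3.02 with a filter at FPKM 5, since other genes enter it, and -2.62 to -1.26 when single libraries were left out. For *Cxcl16* the adjusted p was 0.0607 with a pseudocount of 0.1, 0.0531 without a trend and 0.0674 without a filter, and for *Il18* 0.117 and 0.0524 with that pseudocount and without a filter. At an adjusted p under 0.01, *Cxcl16*, *Ccl12*, *Il18*, *Cxcr7* and *Il17ra* were no longer called. The sign turned for 4 genes that were not called: *Il11ra1* was at 0.00398 with median-ratio scaling and *Ccl19* at 0.42 with quantile normalization, and with single libraries left out the log2 fold change ran from -0.18 to 0.14 for *Il11ra1*, -0.77 to 0.23 for *Ccl19*, -0.28 to 0.54 for *Cxcl14* and -0.13 to 0.31 for *Il33*. The cause of these changes was not tested.

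With the replicate number as a block, 3 members were higher and 16 lower (*Il17ra*, adjusted p = 0.0597), and no other call changed. Same-numbered libraries correlated at 0.08, 0.02 and 0.05 in their deviations from the group means, each best with its own number but all under 0.1, and the numbers were not taken to pair the samples. Over all genes, 952 were higher and 1493 lower, against 1212 and 1080 with quantile normalization, which moved the median log2 fold change of all genes from -0.12 to 0.01, 667 and 845 at an adjusted p under 0.01, and 691 to 949 and 607 to 1733 when single libraries were left out. Depth limits what is seen in mural cells: for 8 tested members the 3 libraries held 3 or fewer read pairs.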
